A study of Rattus norvegicus with 6 samples.

Results

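Fatty acid desaturases and elongases are the membrane enzymes that set the length and the number of double bonds of the acyl chains a liver makes or takes up. The group described here was listed by symbol as Scd, Scd2, Fads1, Fads2, Elovl1, Elovl2, Elovl3, Elovl5 and Elovl6, which is 9 genes, and 8 of them were found among the 20104 genes of the deposited tables. Elovl3, an elongase of saturated and monounsaturated very long chains known from mouse skin and brown fat, has no expression value here, so its level was not analysed here. All 8 passed the filter on low counts that kept 13872 genes. The list was chosen by its earlier results in these same libraries, so the difference between the dressings is given for its genes as a description, with no test, and nothing rests on it.

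RNA sequencing measured gene expression in repaired liver of rats, taken 14 days after the liver was injured. A haemostatic dressing named AKOC covered the wound in 3 samples and Quik-clot, which served as the control, in 3 others; the series is titled for kaolin scales anchored on cotton. Every sample came from an injured and dressed liver, so no value for uninjured liver stands beside these, and the sources used here do not give the strain, sex and age of the rats. The labels leave unsaid whether each sample is a rat of its own, so errors and p-values reflect how much these samples vary, which may be technical in origin.

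The desaturases insert a double bond into an acyl-CoA with electrons passed on by cytochrome b5 and its reductase. Stearoyl-CoA desaturase turns saturated chains into oleate and palmitoleate, the main monounsaturated chains of triglycerides and cholesteryl esters, and in liver its gene is known as a target of the transcription factors SREBP-1c and LXR, with transcript levels that fall on fasting and climb on carbohydrate refeeding. Fads2 and Fads1 act in turn on the essential fatty acids, with an elongation step by Elovl5 between them, on the way to arachidonic and eicosapentaenoic acid, and Elovl2 lengthens their products towards docosahexaenoic acid. Elovl6 lengthens palmitate to stearate, the substrate of Scd, and Elovl1 makes saturated and monounsaturated very long chains for sphingolipids.

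Promoter windows from RefSeq (assembly GRCr8) run from 250 bases before to 50 after a start listed for the gene. That start need not be the outer end of the annotated gene. Of the 250 bases, 0 lay outside the gene for Scd and Elovl1, 17 for the second Elovl2 window and 93 for Fads2. Windows were found for 8 of the 9 listed genes, as 9 windows because Elovl2 has a pair. Elovl3 is among them and Elovl6 is not. They were searched on both strands for 5 short motifs of factors known at lipogenic promoters. CCAAT, the NF-Y box, stood in 4 of the 9 windows and in 37.5% of 33469 windows of the same length over all genes. GGGCGG, the GC box, stood in 5 of the 9 and in 33.1% of all. CACGTG, an E-box, stood in 2 of the 9 and in 6.42% of all. TCACNCCAC, one form of the sterol regulatory element, and AGGTCA, a nuclear receptor half-site, stood in 0 of the 9, beside 1.12% and 16.2% of all windows. The Scd window held none of the 5 and the Fads2 window held a single GC box, which says only that these letters are not in those windows. The Scd window lay inside the annotated gene, so the bases upstream of that gene were not searched. The NF-Y box, read as CCAAT or as ATTGG on the other strand, stood in the windows of Fads1, Scd2, Elovl5 and Elovl3. Those of Elovl5 and Elovl3 also held the E-box. The stretches before the start of Fads1, Scd2 and Elovl5 are shown. That of Elovl3, which has no expression value here, is not. Capitals mark the NF-Y box and the E-box, and each stretch is printed on the plus strand, without bases inside an annotated gene.
Fads1, chr1:216252442-216252604: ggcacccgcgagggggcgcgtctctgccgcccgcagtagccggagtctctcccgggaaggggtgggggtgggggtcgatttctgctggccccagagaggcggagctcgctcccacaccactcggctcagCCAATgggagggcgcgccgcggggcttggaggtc
Scd2, chr1:253118127-253118376: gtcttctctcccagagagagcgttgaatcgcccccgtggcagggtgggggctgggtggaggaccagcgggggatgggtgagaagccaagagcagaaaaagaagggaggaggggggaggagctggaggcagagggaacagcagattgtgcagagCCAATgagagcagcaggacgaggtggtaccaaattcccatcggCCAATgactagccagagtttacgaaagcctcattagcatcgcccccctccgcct
Elovl5, chr8:87670914-87671163: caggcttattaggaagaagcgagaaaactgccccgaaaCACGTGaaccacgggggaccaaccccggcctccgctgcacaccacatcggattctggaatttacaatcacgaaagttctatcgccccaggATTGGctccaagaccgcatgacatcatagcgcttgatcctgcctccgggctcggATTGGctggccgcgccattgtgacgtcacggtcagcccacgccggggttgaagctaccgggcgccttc

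Library totals lay between 40402312 and 41455378 counts, so depth differed little between samples. Hepatocyte marker genes summed to 139688 to 206375 CPM after AKOC and to 131805 to 185367 CPM after Quik-clot (CPM, counts scaled to 1e6 per library after TMM normalization), and albumin alone took 7.02% to 11.7% of each library. Quik-clot replicate 3 stood apart in 2 acute phase genes, A2m (alpha-2-macroglobulin) at 2403 CPM and Lcn2 (lipocalin) at 3167 CPM. Any other library had at most 91.5 and 262 CPM of them. Summed over 13 acute phase genes, Quik-clot replicate 3 was highest at 126061 CPM and AKOC replicate 2 followed at 88786 CPM. The remaining libraries lay at 40834 to 55455 CPM. The 3 Quik-clot libraries spread from -51.8 to 3.77 on the first principal component and the 3 AKOC libraries from 19.1 to 40.6. In bulk tissue, fewer cells of a type and less RNA per cell cannot be told apart.

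Of the 8 genes, 1 had all AKOC libraries above all Quik-clot libraries, as did 9.53% of all genes tested. That gene was Scd. It stood at 26.7, 165 and 178 CPM in Quik-clot replicates 1, 2 and 3 and at 1803, 6840 and 5821 CPM in AKOC replicates 1, 2 and 3. The groups did not overlap: the lowest AKOC library lay 10.1 times above the highest Quik-clot library. Replicate 1 was the lowest of its group under both dressings, and the libraries within a group spread by 6.67-fold after Quik-clot and by 3.79-fold after AKOC. The means were 123 ± 83.9 CPM (SD, n = 3) after Quik-clot and 4821 ± 2663 CPM (SD, n = 3) after AKOC, a ratio of 39.1, and the fitted log2 fold change was 5.29 ± 0.89 (SE). By that fitted value Scd ranked 4 of 13872 genes.

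As reads, Scd went from 1229, 7180 and 6604 counts in the Quik-clot libraries to 80304, 256212 and 223211 in the AKOC libraries. That was 0.0030% to 0.0176% of a Quik-clot library and 0.194% to 0.618% of an AKOC library, and even the lowest library rests on 1229 reads. From the lowest to the highest of the 6 libraries the Scd level differed by 256-fold. Among 11152 genes with at least 1 CPM in every library the median of that ratio was 1.51, and the genes with a wider one were Obp3, Lcn2 and A2m. Those 3 genes do not follow the dressing: Obp3 peaked in AKOC replicate 1, and A2m and Lcn2 in Quik-clot replicate 3. Genes under 1 CPM in any library were left out of this comparison, and Scd was not the widest with them included. Pnpla5 lay at 0.022 to 0.138 CPM after Quik-clot, near the floor, and at 4.74 to 35.1 CPM after AKOC.

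Scd2, the paralog that in mouse serves brain and other tissues more than adult liver, did not share this pattern. It lay at 11.7, 26.8 and 15.2 CPM after Quik-clot and at 22.8, 25.8 and 15.9 CPM after AKOC. The groups overlapped, Quik-clot replicate 2 was the highest library of all, and the log2 fold change was 0.26 ± 0.32 (SE). Per transcript length, Scd exceeded Scd2 by 2.39 to 12.3 times in the Quik-clot libraries and by 83.0 to 384 times in the AKOC libraries.

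The table holds a pair of further stearoyl-CoA desaturase paralogs at very low counts. Scd3 had 0, 0 and 2 counts in the Quik-clot libraries against 15, 18 and 25 in the AKOC libraries. These were the libraries with many Scd reads, and Scd3 counts came to 70.3 to 187 for each 1e6 Scd counts after AKOC and to 0 to 303 after Quik-clot. How the counting treated reads shared by near-identical copies is not given, so a part of the Scd3 counts may belong to Scd, and no fold change is given for it. Scd4 had 2 counts in AKOC replicate 3 and none in the other 5 libraries, at or under the floor of 3 counts that a count of 0 allows.

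**Figure D1:**
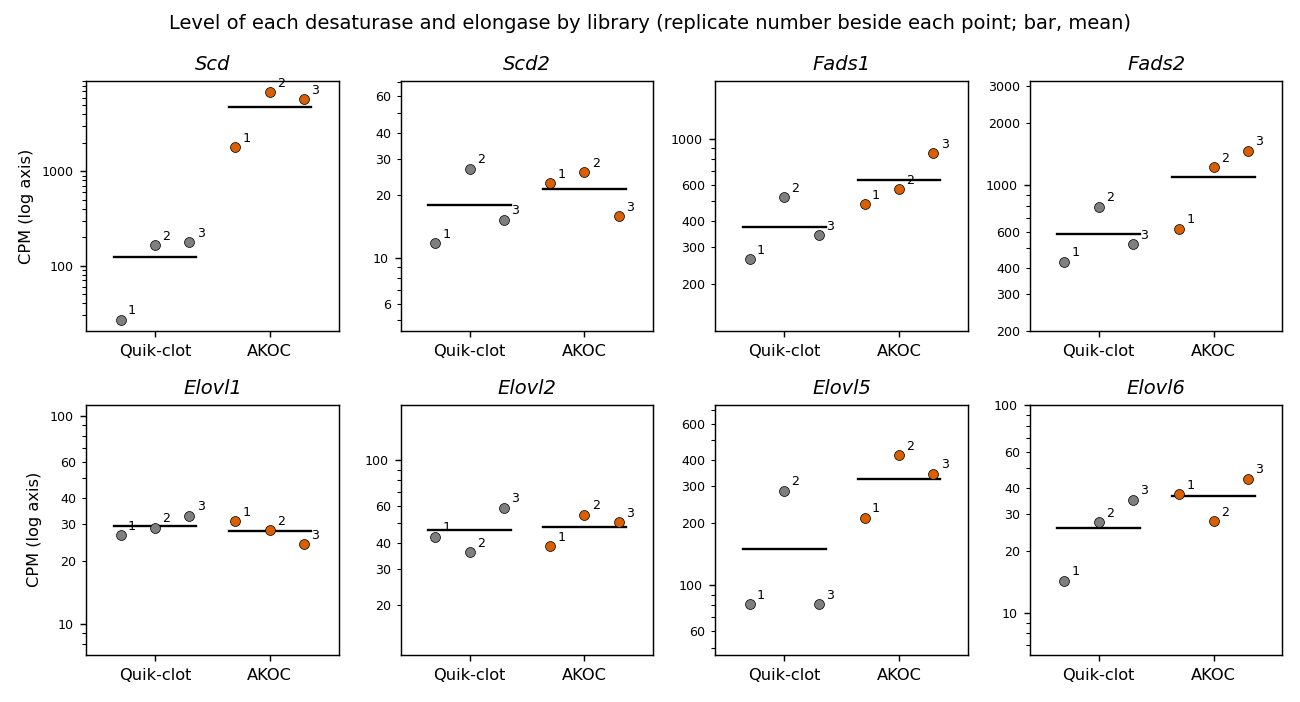
Level of each of the 8 measured genes in CPM on a log axis, 1 point per library with its replicate number, Quik-clot in grey and AKOC in orange, and a bar at the group mean; the Scd panel spans a wider range than the other 7. Scd is the gene whose groups do not overlap, with Quik-clot libraries at 26.7 to 178 CPM and AKOC libraries at 1803 to 6840 CPM. Over all genes tested, 9.53% lay wholly higher after AKOC.

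Fads2, which catalyses the first desaturation of linoleic and alpha-linolenic acid, was the most abundant of the other genes. Its level was 430, 791 and 522 CPM in Quik-clot replicates 1, 2 and 3 and 619, 1223 and 1470 CPM in AKOC replicates 1, 2 and 3. Quik-clot replicate 2 lay above AKOC replicate 1, so the groups overlapped through that single pair. The means were 581 ± 187 and 1104 ± 438 CPM (SD, n = 3 each), with a log2 fold change of 0.93 ± 0.36 (SE).

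Fads1, the desaturase of the last step to arachidonic acid, behaved much like Fads2. It measured 264, 523 and 344 CPM after Quik-clot against 484, 574 and 852 CPM after AKOC. Here too the overlap came from Quik-clot replicate 2, which exceeded AKOC replicate 1, and the log2 fold change was 0.76 ± 0.31 (SE). Averaged over the 6 libraries, the centred log2 levels of Fads1 and Fads2 differed by 0.17, the smallest distance between any 2 of the 8 genes. The ratio of Fads2 to Fads1 per transcript length was 1.71, 1.59 and 1.59 in the Quik-clot libraries against 1.34, 2.24 and 1.82 in the AKOC libraries, so the AKOC range enclosed the Quik-clot range.

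Elovl5, the elongase that works between Fads2 and Fads1, was split within the control group. It stood at 81.1, 285 and 81.1 CPM in Quik-clot replicates 1, 2 and 3 and at 211, 421 and 344 CPM in AKOC replicates 1, 2 and 3. Quik-clot replicate 2 lay among the AKOC libraries and the other 2 lay below all of them. The log2 fold change was 1.13 ± 0.53 (SE) with all libraries and 2.0 without Quik-clot replicate 2.

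The next tally covered 10 genes known to differ between male and female rat liver. By unadjusted edgeR p under 0.05, 2 were higher and 1 lower after AKOC. None passed edgeR's adjusted threshold, while DESeq2, another test of the counts, gave adjusted p under 0.05 for Cyp2c7 and Cyp2c13. Without Quik-clot replicate 2 the count of higher genes was 6. It was 1 without Quik-clot replicate 3 or AKOC replicate 1. Some of the 10 split the control libraries in the same places as Elovl5, and others did not. Cyp2c11, a male-typical cytochrome P450, stood at 140, 1695 and 118 CPM in Quik-clot replicates 1, 2 and 3 and at 1766, 767 and 3378 CPM in AKOC replicates 1, 2 and 3. Cyp2c13, also male-typical, stood at 549, 1846 and 546 CPM after Quik-clot and at 2923, 2253 and 2759 CPM after AKOC. Quik-clot replicates 1 and 3 were thus low in both, as they were in Elovl5. Cyp3a2, male-typical too, split the controls alike, at 802, 5764 and 780 CPM, but the AKOC libraries lay at 4324, 864 and 2547 CPM, within the Quik-clot range. Cyp2c12, typical of females, ran the other way, with 918, 97.0 and 283 CPM after Quik-clot against 8.69, 17.3 and 74.7 CPM after AKOC. Cyp2c7, female-predominant, did not follow either course: its controls lay close together at 1179, 1447 and 1161 CPM, and the AKOC libraries stood above them at 2701, 5587 and 3811 CPM (log2 fold change 1.68 ± 0.34, SE). Single members of the Cyp2c family share sequence and are uncertain. The Y-linked Eif2s3y lay between 30.8 and 43.1 CPM in every library and Xist at no more than 0.054 CPM. The part of these differences in the Elovl5 values was not tested.

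The remaining elongases differed less between the dressings. Elovl6 measured 14.3, 27.4 and 35.2 CPM after Quik-clot against 37.4, 27.8 and 44.4 CPM after AKOC. The groups overlapped because AKOC replicate 2 lay below Quik-clot replicate 3, and the lowest value by a wide margin was that of Quik-clot replicate 1, which was also the lowest in Scd, Scd2, Fads1 and Fads2. The log2 fold change of Elovl6 was 0.51 ± 0.32 (SE).

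Elovl2 stood at 42.8, 36.1 and 59.1 CPM after Quik-clot and at 38.4, 54.6 and 50.1 CPM after AKOC, a log2 fold change of 0.05 ± 0.21 (SE) whose sign turned under 5 of 14 other settings. Elovl1 was the steadiest gene, at 26.6, 28.9 and 33.0 CPM after Quik-clot against 31.0, 28.2 and 24.2 CPM after AKOC. Its log2 fold change was -0.09 ± 0.14 (SE), and its highest library exceeded its lowest by 1.37-fold. In both genes the highest library was Quik-clot replicate 3 and the groups overlapped widely.

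**Figure D2:**
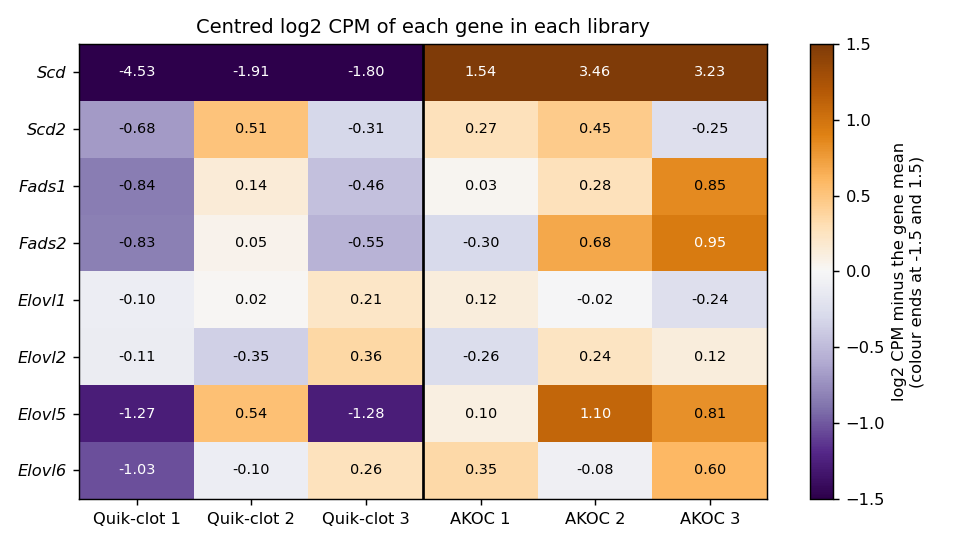
Each cell gives a gene's log2 CPM in a library minus that gene's mean over the 6 libraries, with Quik-clot left and AKOC right of the line; colours end at -1.5 and 1.5. Fads1 and Fads2 share their pattern (mean difference 0.17), Elovl5 is low in Quik-clot replicates 1 and 3, and Elovl1 and Elovl2 stay near 0.

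Over the 8 genes, 7 log2 fold changes were positive and 1 negative, with a median of 0.63 against -0.01 over all genes tested, of which 48.0% were positive. The AKOC libraries lay wholly above the Quik-clot libraries for 1 of the 8 (Scd) and wholly below for 0, where 9.53% of all genes tested lay above and 8.84% below. With Benjamini-Hochberg adjusted p under 0.05, edgeR's quasi-likelihood test called 0% of the 13872 genes and DESeq2 called 2.02% of 13837, or 186 higher and 94 lower. No list gene passed edgeR's adjusted threshold because no gene did, so that result sets no list apart. Without adjustment, edgeR gave p under 0.05 for 6.78% of genes as higher and for 5.69% as lower after AKOC. Scd was the 1 of the 8 among the DESeq2 calls, and nothing is read from that since the contrast chose the list.

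Levels of different genes were compared per transcript length, as FPKM. In the Quik-clot libraries Fads2 led with 144, 253 and 141 FPKM, followed by Fads1 with 84.1, 159 and 88.3 FPKM. Scd took place 6, 4 and 3 in Quik-clot replicates 1, 2 and 3, with 6.23, 36.6 and 33.5 FPKM. In all 3 AKOC libraries the order of the first 4 was Scd, Fads2, Fads1 and Elovl5, with Scd at 404, 1285 and 1148 FPKM and Fads2 at 200, 331 and 418 FPKM. Fads1 exceeded Elovl5 in 6 of 6 libraries, Elovl5 exceeded Elovl2 in 6 of 6, and Elovl1 exceeded Elovl6 in 6 of 6. Elovl2 and Elovl1 did not hold their order, with Elovl2 higher in 4 of 6 libraries, nor did Elovl6 and Scd2, with Elovl6 higher in 3 of 6. At the low end, Elovl6 lay between 2.55 and 6.69 FPKM and Scd2 between 2.60 and 5.67 FPKM.

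The summed FPKM of the 8 genes was 292, 584 and 318 in the Quik-clot libraries against 863, 1924 and 1938 in the AKOC libraries. Scd made up 2.13%, 6.26% and 10.5% of that sum after Quik-clot and 46.8%, 66.8% and 59.2% after AKOC. Without Scd the sums were 286, 547 and 285 after Quik-clot and 459, 639 and 790 after AKOC. The groups then overlapped, Quik-clot replicate 2 lying above AKOC replicate 1. Within the elongases, Elovl5 exceeded Elovl6 by 5.03 to 22.7 times after Quik-clot and by 12.3 to 33.1 times after AKOC, ranges that overlapped as well.

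**Figure D3:**
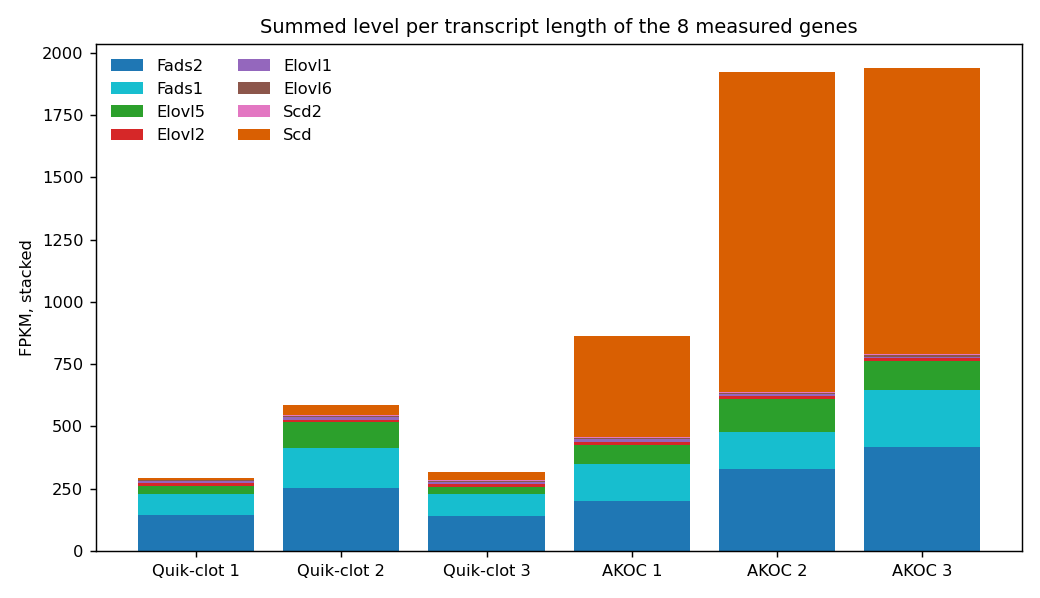
Stacked bars give the FPKM (level per transcript length) of the 8 genes in each library, with Scd on top in orange. Scd is 2.13% to 10.5% of the bar in the Quik-clot libraries against 46.8% to 66.8% in the AKOC libraries.

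The other 6 rows of these enzyme families, beside Scd3 and Scd4, showed no parallel to Scd. Fads6, a desaturase-like gene of little-known function, stood at 128, 80.3 and 87.0 CPM after Quik-clot and at 67.2, 71.8 and 79.0 CPM after AKOC. All its AKOC libraries lay below the Quik-clot ones, with a log2 fold change of -0.44 ± 0.19 (SE). Degs1, which makes ceramide from dihydroceramide, had a log2 fold change of -0.22 ± 0.15 (SE) and Fads3 one of -0.34 ± 0.45 (SE), both with overlapping groups. Elovl7 and Degs2 stayed under 1 CPM in every library, and Elovl4, an elongase of retina and skin, had 1 count in AKOC replicate 1 and none elsewhere. None of these genes passed the adjusted threshold of edgeR.

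The enzymes that complete each elongation cycle were counted as a list of 6 tested genes. By unadjusted edgeR p under 0.05, 2 were higher and 1 lower after AKOC, 33.3% and 16.7% of the list beside 6.78% and 5.69% of all genes, and the median log2 fold change was 0.07. Tecr, the reductase of the last step, stood at 120, 149 and 160 CPM after Quik-clot and at 168, 217 and 210 CPM after AKOC (log2 fold change 0.48 ± 0.16, SE). Hsd17b12, the reductase of the ketoacyl step, had a log2 fold change of 0.33 ± 0.11 (SE). Hacd3, of the dehydratase family, lay at 83.0 to 87.1 CPM after Quik-clot and at 70.8 to 71.9 CPM after AKOC (log2 fold change -0.26 ± 0.09, SE). The groups of these 3 genes did not overlap, while those of Hacd2, another dehydratase, did (0.37 ± 0.17, SE). None passed the adjusted threshold. The count of higher genes fell to 0 when AKOC replicate 2, AKOC replicate 3 or the first Quik-clot library was left out, and that of lower genes to 0 without either of those AKOC libraries.

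The electron chain that serves the desaturases held 1 gene of 6 with unadjusted p under 0.05 as higher and 0 as lower, and its median log2 fold change was 0.04. That gene was Cyb5r3, the NADH-cytochrome b5 reductase. It stood at 165, 158 and 155 CPM after Quik-clot and at 244, 261 and 311 CPM after AKOC, a log2 fold change of 0.77 ± 0.13 (SE). Its Quik-clot libraries lay close together and all AKOC libraries lay above them. DESeq2 gave Cyb5r3 an adjusted p under 0.05. Cyb5a, the cytochrome b5 that hands the electrons over, overlapped between the groups with a log2 fold change of -0.25 ± 0.22 (SE), as did the mitochondrial-membrane form Cyb5b with -0.17 ± 0.18 (SE). The AKOC libraries of the reductase-like Cyb5r4 lay just above those of Quik-clot (0.27 ± 0.15, SE).

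Fatty acid synthesis and the supply of NADPH, which provide the saturated chains for Elovl6 and Scd, held the most genes with a low unadjusted p among the lists of fatty acid metabolism. Of 14 tested genes, 7 had an unadjusted edgeR p under 0.05 as higher and 0 as lower after AKOC, 50% of the list beside 6.78% of all genes, with 12 positive values and a median log2 fold change of 0.66. None passed edgeR's adjusted threshold, while DESeq2 gave adjusted p under 0.05 for Tkt, Me1, Pgd and Acacb. Tkt, transketolase, stood at 98.0, 120 and 108 CPM after Quik-clot and at 160, 221 and 225 CPM after AKOC (log2 fold change 0.89 ± 0.16, SE). Me1, malic enzyme, stood at 13.5, 30.2 and 20.6 CPM after Quik-clot and at 35.4, 53.6 and 81.3 CPM after AKOC (1.40 ± 0.37, SE). Both left a gap between the groups. Pgd and Acacb, a NADPH-forming dehydrogenase and an acetyl-CoA carboxylase, had log2 fold changes of 0.88 ± 0.24 and 1.23 ± 0.34 (SE), also without overlap. Acaca, Taldo1 and Fasn were the other 3, with log2 fold changes of 0.55 to 0.73. Fasn, the synthase that makes palmitate, overlapped between the groups, at 250 to 412 CPM after Quik-clot against 339 to 712 CPM after AKOC.

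**Figure D4:**
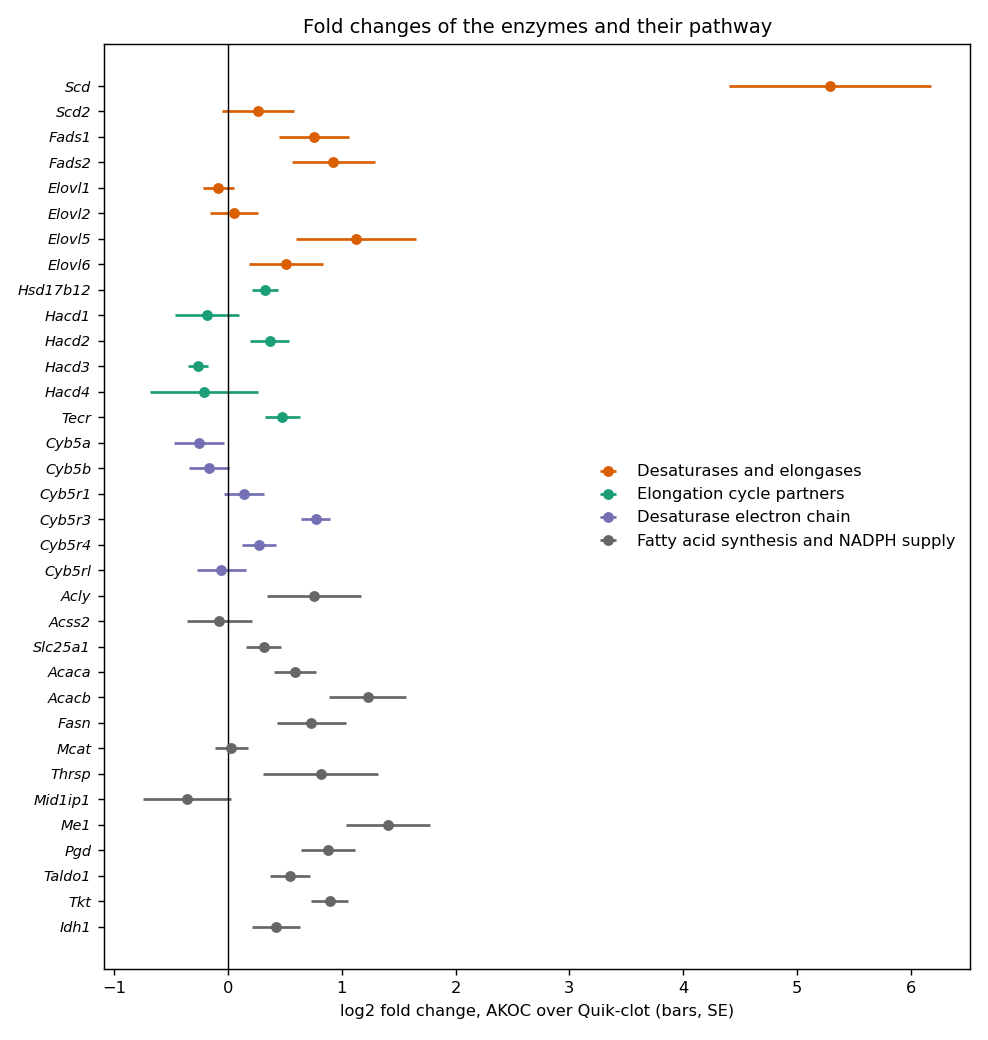
Log2 fold change of AKOC over Quik-clot with its SE (bars) for the 8 desaturases and elongases and for every tested gene of 3 pathway lists. Scd lies at 5.29, the other 7 between -0.09 and 1.13, and 12 of 14 genes of fatty acid synthesis and NADPH supply lie above 0.

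Proteins that activate and carry fatty acids gave 4 genes of 14 as higher and 1 as lower by unadjusted p, with a median log2 fold change of 0.16. Dbi, the acyl-CoA binding protein, stood at 197, 354 and 293 CPM after Quik-clot and at 578, 559 and 726 CPM after AKOC (log2 fold change 1.14 ± 0.24, SE). Acsl5, a long-chain acyl-CoA synthetase, had a log2 fold change of 0.80 ± 0.20 (SE) and Fabp5, a fatty acid binding protein, one of 2.11 ± 0.62 (SE). The groups of these 3 genes did not overlap, while those of Fabp2, the fourth, did (1.49 ± 0.62, SE). DESeq2 gave adjusted p under 0.05 for Dbi and Acsl5. The gene lower after AKOC was Acsbg1, another acyl-CoA synthetase, at -1.19 ± 0.50 (SE) with overlapping groups; it lost that p without Quik-clot replicate 1 or 3 or AKOC replicate 1 or 3, when 0 genes were lower, and 3 were without Quik-clot replicate 2.

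Among 21 regulators of lipogenic genes, 2 were higher and 4 lower by unadjusted p under 0.05, with a median log2 fold change of -0.03. Insig2, which retains the SREBP precursors in the endoplasmic reticulum, stood at 90.6, 126 and 107 CPM after Quik-clot and at 171, 223 and 203 CPM after AKOC (log2 fold change 0.88 ± 0.16, SE). Srebf1, which encodes SREBP-1, stood at 89.9, 165 and 76.8 CPM after Quik-clot and at 179, 213 and 297 CPM after AKOC (1.05 ± 0.32, SE). As in Fads1, Fads2 and Elovl5, Quik-clot replicate 2 was the highest control library, but here it stayed under every AKOC library. The 4 lower genes were Hnf4a at -0.41 ± 0.13, Ppara at -0.63 ± 0.21, Ppargc1b at -0.88 ± 0.30 and Srebf2 at -0.48 ± 0.17 (log2 fold change ± SE). Mlxipl, which encodes the carbohydrate-responsive factor ChREBP, and Nr1h3, which encodes LXR-alpha, had log2 fold changes of 0.26 and 0.01. None of the 21 passed edgeR's adjusted threshold, while DESeq2 gave adjusted p under 0.05 for Insig2 and Srebf1. The count of lower genes fell to 1 without Quik-clot replicate 1 and to 2 without AKOC replicate 2 or AKOC replicate 3.

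Genes that answer to feeding and insulin gave 1 of 14 as higher and 0 as lower by unadjusted p, with a median log2 fold change of -0.15. The gene was Pklr, liver pyruvate kinase, at 54.6, 83.9 and 43.5 CPM after Quik-clot against 134, 222 and 288 CPM after AKOC (log2 fold change 1.82 ± 0.34, SE). Of 19 clock genes, 3 had an unadjusted p under 0.05 as higher and 11 as lower, 15.8% and 57.9% of the list beside 6.78% and 5.69% of all genes. None passed edgeR's adjusted threshold, and without AKOC replicate 2 or AKOC replicate 3 the counts were 2 and 7. DESeq2 gave adjusted p under 0.05 for Pklr and for several clock genes, among them Bmal1 and Dbp. Bmal1, the activator of the clock, stood at 6.33 to 9.67 CPM after Quik-clot and at 20.6 to 36.7 CPM after AKOC (1.96 ± 0.26, SE), and Dbp, an output factor, at 20.2 to 28.3 and 3.42 to 8.33 CPM (-2.20 ± 0.37, SE). The hour at which each liver was taken, and when each rat last fed, are not stated in those sources, and the part of either in the Scd values was not tested.

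Genes whose pattern over the 6 libraries lay nearest to that of a member were found among 11356 genes with a mean of at least 1 CPM, by the mean absolute difference of centred log2 CPM. Nearest to Scd were Scrn1 at 0.46, Pnpla5 at 0.79, Npas2 at 0.87, Ptk6 at 1.16 and Sult4a1 at 1.22. Their Quik-clot means were 0.38, 0.080, 0.44, 0.54 and 0.031 CPM, near the floor. All 5 thus met the mean of 1 CPM only through the AKOC libraries, and their nearness restates the contrast that chose Scd. Scrn1 had 0.022, 0.619 and 0.486 CPM after Quik-clot against 3.79, 11.7 and 7.28 CPM after AKOC, so like Scd it was lowest in replicate 1 of each dressing, at far lower levels. Nearest to Fads2 were Ebpl at 0.12, Bhmt at 0.14, Leap2 at 0.15, Hmcn1 at 0.16 and Fads1 at 0.17. Ebpl measured 16.8, 37.7 and 18.3 CPM after Quik-clot against 26.6, 48.5 and 64.1 CPM after AKOC. Nearest to Elovl6 were Antxr1 at 0.049, Kcnj8 at 0.078, Adra2b at 0.095, Itgb3 at 0.15 and C2h4orf3 at 0.16, and the first of them lay at no more than 2.37 CPM. For Elovl5, a gene added to this search after its values were seen, they were Adamdec1 at 0.20, Sectm1b at 0.21, Aldh1b1 at 0.22, Serpina6 at 0.24 and Ifgga2l1 at 0.26. None of the other 7 members came nearer to Scd than 2.07, the distance of Elovl5. The centred levels were not scaled for spread, and those of Scd ran from -4.53 to 3.46. Such a distance therefore follows from the wide range of Scd and does not compare shape alone.

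Markers of other cell types were read beside these values. Of the 10 tested macrophage markers 4 were lower and 0 higher by unadjusted p, all 10 values were negative, and their sum was 836 to 1210 CPM after AKOC and 1045 to 1640 CPM after Quik-clot. Cd14 had a log2 fold change of -0.72 ± 0.17 (SE). The count of lower macrophage markers was 2 without AKOC replicate 1 or AKOC replicate 3. Of the 8 tested T and NK cell markers 3 were lower and all 8 values negative, with sums of 11.0 to 14.0 CPM after AKOC and 14.3 to 40.2 CPM after Quik-clot; without Quik-clot replicate 2 or any 1 AKOC library the count was 1. None of these markers passed edgeR's adjusted threshold, while DESeq2 gave Cd14 an adjusted p under 0.05. Quik-clot replicate 2, the control library highest in Elovl5, Fads1 and Fads2, was also the highest in both sums; the part of these cells in those values was not tested. Of the adipocyte markers, which bear on Scd because fat is rich in it, 0 of 5 tested genes had an unadjusted p under 0.05 in either direction. Of the 10 markers listed, 8 had expression values, and Plin1 and Lep did not. Of the 5 tested, 4 values were negative and 1 positive, that of Cidea (log2 fold change 0.72 ± 0.35, SE). Adiponectin (Adipoq) had no reads in the Quik-clot libraries and at most 0.027 CPM after AKOC. The adipocyte sums were 33.7 to 56.8 CPM after AKOC and 39.0 to 59.7 CPM after Quik-clot. The part of fat cells in the Scd values was not tested.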

How the data were processed

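Per the labels, total RNA from liver was extracted with TRIzol and made into libraries with the VAHTS Universal V6 kit. Per the submitters' processing notes, fastp, HISAT2 and HTSeq were used with the mRatBN7.2 build; the sources used here give no versions, annotation or strand setting, so reads of near-identical copies and of antisense partners cannot be told apart. The authors deposited whole-number counts per gene, without normalization, and FPKM for the same genes. Each count, its library total and its deposited FPKM together imply a transcript length. That length was the same for a gene in every library within a relative error of 8.58e-07, so the tables hold 1 measurement. The lengths were not compared with an annotation.

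Counts were TMM-normalized (trimmed mean of M values, factors 0.902 to 1.12), filtered with filterByExpr (minimum count 10, minimum total 15) and fitted with the quasi-likelihood test of edgeR 4.0.16 in R 4.3.3, two-sided, the dressing being the only term, with Benjamini-Hochberg adjustment over 13872 genes. The lowest adjusted p was 0.181, at a biological coefficient of variation of 27.2%. With 3 against 3, the smallest p of an exact permutation test is 0.1. SE is the standard error of a log2 fold change. The fit was checked on simulated data, in which 200 of 13872 genes were changed. At adjusted p under 0.05 it recovered 39.4% of 2-fold changes and 86.4% of both 4-fold and 8-fold changes, with 11 false calls. DESeq2 1.42.0, limma 3.58.1, other scaling, no filter and leaving out libraries were alternatives; the legacy method of edgeR was added after seeing the data. The count floor covers counting error only, while SE also covers variation between libraries.

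The members and the 25 gene lists (306 entries) were chosen with earlier results of these data known; 1 gene of fatty acid synthesis and NADPH supply was taken out afterwards and is not reported here. Genes are named by rule: all members and other family rows, at most 4 tested genes per list, in the order of smallest p, markers at 0, and the 5 genes nearest in pattern to Scd, Fads2 and Elovl6. In fatty acid synthesis and regulators all genes with unadjusted p under 0.05 are named, and Mlxipl, Nr1h3, Fabp2, Cyp2c11 and Cyp3a2 were chosen after their values were seen. Promoter windows are from RefSeq, assembly GRCr8, which differs from the authors' build; no other coordinates are given.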

Additional observations from a re-analysis of the deposited data

How the results depend on the processing

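Member fold changes, counts of calls and overlaps, and list counts were recomputed with other scaling, without the low-count filter, with DESeq2, with limma on FPKM at 2 pseudocounts, with a replicate block, with the legacy method of edgeR (chosen after seeing the data) and without each library in turn. The log2 fold change of Scd stayed between 4.81 and 5.68, that of Fads1 between 0.49 and 1.07, of Fads2 between 0.67 and 1.21, of Elovl6 between 0.22 and 0.81 and of Scd2 between 0.03 and 0.67. Elovl5 ranged from 0.83 to 2.0, the latter without Quik-clot replicate 2. Elovl2 ranged from -0.10 to 0.27 and Elovl1 from -0.17 to 0.0061, so neither has a settled sign. Genes called went from 0 in either direction to 186 higher and 94 lower with DESeq2, and without 1 library they ranged from 0 to 12 higher and from 0 to 6 lower, the most without Quik-clot replicate 2; the cause was not tested. DESeq2 called 1 of the 8 genes. Members lying wholly above the Quik-clot libraries numbered 1 to 5 when 1 library was left out: 5 without Quik-clot replicate 2 (all but Elovl1, Elovl2 and Elovl6; 18.5% of all genes tested), 4 without AKOC replicate 1 (Scd, Fads1, Fads2 and Elovl5; 15.7%), 2 without Quik-clot replicate 3 (14.1%) or AKOC replicate 2 (13.9%), each time Scd and Elovl6, and Scd alone otherwise. With fewer libraries a gap between groups arises more often. Of 700 recomputed list counts, 554 stayed within 1.5 times the value reported and 146 moved. FPKM sums, shares and ranks and pattern distances were not recomputed, nor were single genes outside the members apart from their DESeq2 calls. Library totals in place of the trimmed mean shifted the median of all genes to -0.09.

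Same-numbered libraries did not deviate together (correlations of deviations -0.07, -0.08 and -0.20, and 0 of 6 libraries correlated best with their own number), so they share only a number; the replicate block called 1 gene higher.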

Other observations

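Genes that place the finished acyl chains showed a mixed picture. Of 19 tested genes of glycerolipid and cholesteryl ester synthesis, 2 were higher and 2 lower after AKOC by unadjusted edgeR p under 0.05, with a median log2 fold change of -0.23. Gpam, which starts glycerolipid synthesis, stood at 182, 204 and 224 CPM after Quik-clot and at 249, 325 and 425 CPM after AKOC (log2 fold change 0.71 ± 0.20, SE). Lpin2, a phosphatidate phosphatase, had a log2 fold change of -0.45 ± 0.14 (SE) and Soat1, a cholesterol acyltransferase, one of -0.45 ± 0.17 (SE). In ceramide synthesis, which uses the chains of Elovl1, 1 of 10 genes was higher and 1 lower by the same count. Sgms2, a sphingomyelin synthase, lay at 16.9 to 18.7 CPM after Quik-clot and at 24.0 to 24.6 CPM after AKOC (0.46 ± 0.10, SE). Ugcg, a glucosylceramide synthase, had a log2 fold change of -0.44 ± 0.15 (SE). None passed edgeR's adjusted threshold, while DESeq2 gave Sgms2 an adjusted p under 0.05.

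Of 12 tested lipid droplet proteins, 2 were higher and 1 lower by unadjusted p under 0.05. In that list 6 values were positive and 6 negative, with a median log2 fold change of -0.05. The lower gene was Hilpda (-0.64 ± 0.25, SE). Pnpla3, a higher one, stood at 9.42, 8.50 and 12.2 CPM after Quik-clot and at 19.4, 39.6 and 241 CPM after AKOC. AKOC replicate 3, the highest library in Fads1 and Fads2, thus also led in Pnpla3 by a wide margin. Among 9 LXR targets of lipid transport, 0 had an unadjusted p under 0.05 in either direction, with a median log2 fold change of -0.30. Of 18 tested targets of PPAR-alpha, 1 was higher (Plin2, which coats lipid droplets, 0.54 ± 0.20, SE) and 2 lower (Acot3 and Cpt1a, at -0.40 ± 0.14 and -0.77 ± 0.30, SE), with a median log2 fold change of 0.01. Of 11 tested genes of the peroxisomal steps that follow Elovl2, 1 was higher, Eci2, an enoyl-CoA isomerase, with a log2 fold change of 0.30 ± 0.10 (SE). Of the remaining lists, 2 of 10 stellate cell and fibroblast markers were higher (Lum and Pdgfrb). That list was mixed, with 6 positive and 4 negative values, among the latter Dcn (-0.99 ± 0.48, SE), and a median log2 fold change of 0.25. Lower were 2 of 9 endothelial markers (Lyve1 and Pecam1), 1 of 8 cholangiocyte markers (Spp1) and 1 of 13 acute phase genes (Hamp). Of the neutrophil and hepatocyte markers, 0 of 4 and 0 of 12 were either higher or lower. None of these genes passed edgeR's adjusted threshold, while DESeq2 gave adjusted p under 0.05 for Lum and Spp1. Leaving out 1 library moved several of these counts: lower genes of glycerolipid and cholesteryl ester synthesis ranged from 0 without AKOC replicate 1 to 5 without Quik-clot replicate 2, higher stellate cell markers from 1 to 4, the latter also without Quik-clot replicate 2, and lower endothelial markers fell to 0 when AKOC replicate 2, AKOC replicate 3 or the third Quik-clot library was left out.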
